A study of Homo sapiens with 8 samples.

Results

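Aminoacyl-tRNA synthetases and genes of the ATF4 response were followed in L1236, a Hodgkin lymphoma cell line in which the microRNA miR-155 is abundant. The set holds 40 genes, namely 20 cytosolic synthetases, 2 mitochondrial synthetases (AARS2 and IARS2) and 18 genes of the ATF4 response. The genes were chosen by their known roles, with earlier values of the same comparisons in view (IP/T in EV and sponge cells, and sponge minus EV in T and in IP), so these values are given as a description. Their array probes were found through the RefSeq accession of each probe. Of the 40 genes, 38 had a matched probe and 36 passed the filters, among 11204 genes that did so on the whole array. ATF3 and CARS1 had no probe matched by accession. PHGDH, the first enzyme of serine synthesis, was above background in 0 of the 8 channels, and VLDLR, a lipoprotein receptor, in 1, so neither is reported further.

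L1236 cells carried either the empty pMSCV-PIG vector (EV) or that vector with the miR-155 sponge, an RNA whose binding sites draw miR-155 away from natural targets, and both populations were sorted for GFP. Total RNA (T) and RNA precipitated with an antibody against Argonaute 2 (IP), the effector protein loaded with microRNAs, were taken from each population. Each of the 4 RNA samples was labelled with Cy3 and with Cy5 and hybridised to 4 Agilent arrays, IP and T of the same cells side by side. The study asked which transcripts Ago2 holds and which it loses when miR-155 is inhibited. In its Hodgkin lines it saw no clear loss of miR-155 targets, as a gene set, from the IP fraction with the sponge. For most of the targets it selected, however, IP enrichment was mildly lower with the sponge. From this it proposed that endogenous miR-155 also acts on them in these lines. It proposed that the sponge did not capture all of the abundant miR-155. There is 1 RNA sample per group, from 1 transduced population of 1 line, so no test was made, and ± gives the SD over the 2 labellings, which leaves out the spread between cultures and between precipitations.

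Aminoacyl-tRNA synthetases join each amino acid to its tRNA and so feed the ribosome. When amino acids run short or unfolded protein accumulates in the endoplasmic reticulum, kinases phosphorylate the initiation factor eIF2, most translation slows, and the transcription factor ATF4 is made in larger amounts. ATF4, usually paired with a C/EBP protein such as CEBPG, then switches on genes for amino acid uptake, amino acid synthesis, tRNA charging and redox balance, as well as DDIT3 (also called CHOP) and feedback inhibitors.

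The ATF4 and C/EBP pair is known for binding a composite element whose core reads TGATGCAA, or TTGCATCA on the other strand. The 40 genes were not selected by this sequence, and the matches are shown because part of both lists holds it. The genes were however picked for roles that include response to ATF4. Shares of the motif among them are therefore not independent of the choice and are given as a description. RefSeq promoters (build GRCh38.p14) reach from 250 bases before to 50 bases after the start of a gene and were at hand for 33 of the 40 genes. On either strand, the core was present in 8 of these 33 promoters (24.2%), against 1.08% of the 27305 genes with a promoter. Cytosolic synthetases held it in 6 of 16 promoters (TARS1, IARS1, CARS1, MARS1, AARS1 and NARS1) and ATF4 response genes in 2 of 16 (CHAC1 and CEBPG). With the sixth base free (TGATGNAA, or TTNCATCA, which includes the first motif), the numbers were 12 of 33 (36.4%) against 4.46% of genes, and ATF3, GARS1, ASNS and SLC3A2 were added. The windows below are written in the direction of the gene, with the motif in capitals. The first 7 carry the full core. ASNS is shown because its element, which differs at the free base, belongs to the textbook target of ATF4.
AARS1, chr16:70289665-70289714, minus strand: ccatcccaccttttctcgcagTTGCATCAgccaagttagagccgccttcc
IARS1, chr9:92293682-92293731, minus strand: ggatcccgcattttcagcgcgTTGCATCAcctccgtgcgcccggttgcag
MARS1, chr12:57488043-57488092, plus strand: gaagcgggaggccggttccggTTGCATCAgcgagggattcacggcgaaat
TARS1, chr5:33440946-33440995, plus strand: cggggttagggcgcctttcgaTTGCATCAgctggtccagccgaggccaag
NARS1, chr18:57621794-57621843, minus strand: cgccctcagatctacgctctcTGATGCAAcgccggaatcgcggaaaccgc
CHAC1, chr15:40953241-40953290, plus strand: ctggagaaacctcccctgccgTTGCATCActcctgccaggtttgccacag
CEBPG, chr19:33374050-33374099, plus strand: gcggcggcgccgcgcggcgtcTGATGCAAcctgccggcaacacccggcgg
ASNS, chr7:97872448-97872497, minus strand: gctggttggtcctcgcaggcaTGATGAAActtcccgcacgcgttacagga
In TARS1, IARS1, MARS1 and NARS1 the motif began within 14 bases of the gene start, while in CHAC1 and AARS1 it began at positions −209 and −187. A match is a description of the letters, not evidence that ATF4 was bound.

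The sponge acts on the other sequence of interest, mature miR-155-5p, printed from RefSeq (chr21:25573983-25574006, plus strand) with the seed, bases 2 to 8, in capitals.
hsa-miR-155-5p: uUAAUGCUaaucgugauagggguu
MIR155HG, the host transcript of this microRNA, was lower in sponge than in EV cells, with log2 changes of −0.63 ± 0.12 in T and −0.38 ± 0.077 in IP. AGO2 itself differed by −0.0016 ± 0.035 in T. All 7 markers chosen for Hodgkin lymphoma cells (TNFRSF8, CCL17, IRF4, CD40, TRAF1, FSCN1 and MIR155HG) were above background in the 4 T channels. So were 4 of 5 B-lineage markers, although that list was chosen as usually low in these cells. The same held for 3 of 5 T cell markers and 2 of 4 monocyte markers. MS4A1, CD3D, CD3G, CD163 and LYZ were above background in none of the 4. Between 61.0% and 65.7% of spots were well above background in 7 channels and 54.1% in sponge T labelled with Cy5. In bulk RNA, a change in the number of cells that express a gene and a change in RNA per cell cannot be told apart.

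Ago2 enrichment is given as the ratio of IP to T signal (IP/T). The IP/T ratio of the cytosolic synthetases ran from well below to well above 1, so that they had no common standing in the Ago2 fraction. In EV cells 2 of 19 had an IP/T of at least 2 (RARS1 and NARS1) and 5 of 19 a T/IP of at least 2 (VARS1, SARS1, YARS1, KARS1 and FARSA). The share of all 11204 genes past these thresholds was 18.1% and 18.8%. In log2 units, the median of the 19 was −0.46 (−0.32 and −0.35 in the separate dye orientations), beside −0.16 for all genes. Over the 36 genes, the 6 with a T/IP of at least 2 were 2 to 3 after normexp background correction, with KARS1, YARS1 and AARS2 among those lost (log2 IP/T in EV cells of −0.59, −0.97 and −0.39 with loess and Aquantile).

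RARS1, which charges arginine, stood highest. Its normalised log2 signals were 13.94 (Cy3) and 13.76 (Cy5) in EV T, 16.08 and 15.93 in EV IP, 14.03 and 13.65 in sponge T, and 16.15 and 15.99 in sponge IP. Both IP samples were therefore far above both T samples, and the 2 cell populations overlapped in T and nearly coincided in IP. The IP/T ratio was 4.46 in EV cells (log2 2.16 ± 0.24) and 4.68 in sponge cells (2.23 ± 0.38). NARS1, the asparagine enzyme, followed with 1.59 ± 0.15 (a ratio of 3.01) and 1.35 ± 0.25. Methionine (MARS1, 0.85 ± 0.014), leucine (LARS1, 0.81 ± 0.24) and glycine (GARS1, 0.43 ± 0.19) enzymes were on the IP side in EV cells, below 2-fold.

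At the other end, VARS1, the valine enzyme, lay at −1.58 ± 0.53 in EV and −1.71 ± 0.67 in sponge cells (log2 IP/T), with the widest spread between dye orientations of any synthetase. SARS1, which charges serine, read 13.34 and 13.19 in EV T, 11.80 and 11.74 in EV IP, 13.44 and 13.21 in sponge T, and 12.28 and 12.16 in sponge IP. Its T signals were above its IP signals in both populations, but the distance was smaller in sponge cells, where the IP signals were higher. In log2 IP/T this came to −1.50 ± 0.15 in EV and −1.11 ± 0.25 in sponge cells. YARS1 (tyrosine) went from −1.48 ± 0.12 to −0.97 ± 0.065 and KARS1 (lysine) from −1.46 ± 0.19 to −1.05 ± 0.0063. The 2 subunits of the phenylalanine enzyme did not share a position, with FARSA (alpha) at −1.32 ± 0.040 and FARSB (beta) at 0.066 ± 0.18 in EV cells.

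The remaining cytosolic enzymes lay between HARS1 (histidine), at −0.91 ± 0.013, and QARS1 (glutamine), at −0.25 ± 0.13. EPRS1 (glutamate and proline), TARS1 (threonine), IARS1 (isoleucine), AARS1 (alanine) and WARS1 (tryptophan) fell inside this range. Neighbours in the order from RARS1 to VARS1 mostly differed by less than the SD of their labellings. Among the enzymes named here, steps larger than either SD were those from RARS1 to NARS1, NARS1 to MARS1, LARS1 to GARS1 and GARS1 to FARSB. Further down, they were those from FARSB to QARS1, TARS1 to HARS1 and HARS1 to FARSA. AARS2 and IARS2, which charge tRNA inside mitochondria, had −1.18 ± 0.18 and −0.39 ± 0.15 in EV cells.

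The 15 measured ATF4 response genes were split almost evenly in EV cells, with 8 on the IP side and 7 on the T side. IP/T was at least 2 for CHAC1, MTHFD2, DDIT4 and SLC7A11 (4 of 15, against 18.1% of all genes). For SLC7A11, whose EV T signal was not above background, only a bound holds. At the probe used for each gene, 0 of 15 reached a T/IP of 2 (18.8%), but second probes of ATF4 and SLC3A2 did, as given below. In log2 IP/T their median was 0.54 for EV (0.39 and 0.63 by orientation) and 0.48 for sponge cells, beside −0.16 and −0.14 for all genes. The median of the list in EV cells is the value of TRIB3 and was 0.075 when all kept probes of a gene were averaged, 0.22 without SLC7A11 and 0.15 to 0.19 after normexp background correction.

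CHAC1, an enzyme that breaks down glutathione, was the most Ago2-enriched of the 36 genes. The normalised log2 signals were 13.39 and 13.58 in EV T against 16.55 and 16.46 in EV IP, and 13.67 and 14.00 in sponge T against 16.84 and 16.79 in sponge IP. In both populations the IP signals stood about 3 log2 units above T without overlap, and sponge signals were above EV signals in both fractions. The ratio was 8.11 in EV cells (log2 3.02 ± 0.074) and 7.85 in sponge cells (2.97 ± 0.20), which placed CHAC1 at rank 211 of 11204 genes in EV cells. MTHFD2, of mitochondrial folate metabolism, had ratios of 4.06 (2.02 ± 0.098) and 3.78 (1.92 ± 0.19).

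DDIT4 (REDD1), an inhibitor of mTORC1, changed its standing between the populations, from 2.33-fold in EV (1.22 ± 0.21) to 3.41-fold in sponge cells (1.77 ± 0.23). PSAT1, of serine synthesis, was just outside the threshold in EV cells at 0.98 ± 0.43 and inside it in sponge cells at 1.14 ± 0.40, a difference below either SD. SLC7A11, the cystine transporter, was just inside at 1.03 ± 0.16 in EV cells, but was above background in neither dye of EV T. Its bound is the ratio itself with normexp, loess and Aquantile, 1.14-fold for EV IP above EV T, taken as a minimum. CEBPG (0.80 ± 0.36), SESN2, a stress-induced inhibitor of mTORC1 (0.70 ± 0.11), and TRIB3, a pseudokinase that dampens ATF4 (0.54 ± 0.21), were on the IP side below 2-fold. With normexp, loess and Aquantile the SLC7A11 value was 0.19, which is this bound in log2 units, and that of SESN2 was 0.43.

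The T side held ATF4 itself (−0.27 ± 0.100), DDIT3 (−0.68 ± 0.24), ASNS, the asparagine synthetase (−0.53 ± 0.046), PPP1R15A, the subunit that brings a phosphatase to eIF2 (−0.23 ± 0.12), and SHMT2, of mitochondrial serine metabolism (−0.24 ± 0.19). SLC3A2, the heavy chain that SLC7A5 and SLC7A11 need at the membrane, lay lowest at the probe used for each gene. It had −0.95 ± 0.12, just outside the 2-fold limit. SLC7A5, the transporter for large neutral amino acids, was at −0.10 ± 0.42, within its spread of 0. For 9 of the 36 genes more than 1 probe was kept. None of these pairs differed by over 1 in log2 IP/T in EV cells, but the second probes of TRIB3, ATF4 and SHMT2 differed from the first by 0.93, 0.78 and 0.75. The second TRIB3 probe had −0.39 ± 0.048, on the T side.

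**Figure D1:**
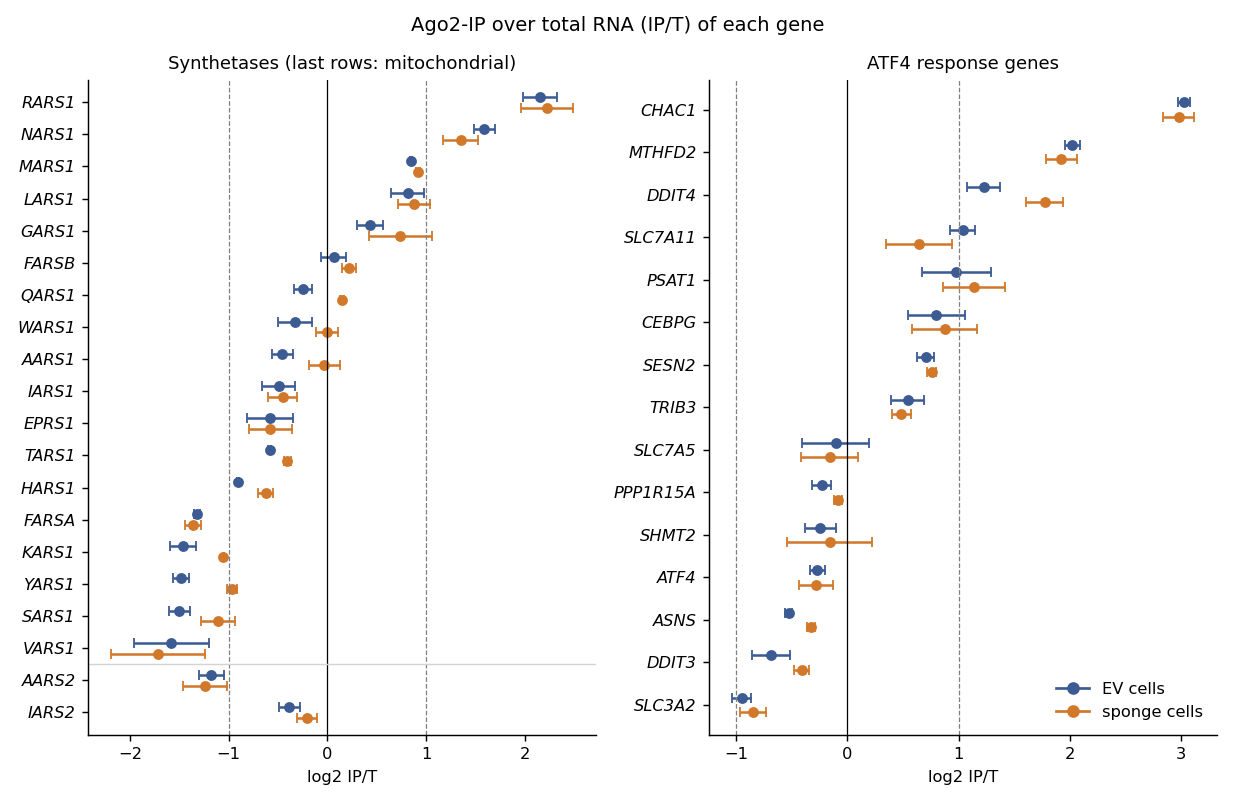
Log2 ratio of Ago2-IP to total RNA signal for 18 cytosolic and 2 mitochondrial synthetases (left, AARS2 and IARS2 below the grey line) and 15 ATF4 response genes (right) in EV and sponge cells. Points are means over the 2 dye orientations, ticks and bars the separate orientations, and dashed lines a 2-fold ratio. Synthetases reach from −1.58 to 2.16 in EV cells. At the brightest kept probe of each gene, shown here, ATF4 response genes cross the 2-fold line on the IP side but not on the T side. Second probes of ATF4 and SLC3A2, not shown, lie past it on the T side in EV cells.

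In sponge cells the picture was close to that in EV cells. IP/T was at least 2 for 6 of the 36 genes (17.8% of all genes), the same as in EV cells with PSAT1 in place of SLC7A11, and T/IP was at least 2 for 5 of 36 (17.4% of all genes), with YARS1 just outside at −0.97. No test of the difference between the populations is possible with 1 sample per group. QARS1 was on the T side in EV cells (−0.25 ± 0.13) and on the IP side in sponge cells (0.15 ± 0.029), in both orientations.

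The 2 populations were then compared within T and within IP. A difference due to the sponge and one between these 2 cultures or precipitations cannot be told apart. The change of IP/T is the difference of these 2 changes and is no separate evidence. A gene was counted as higher or lower when both dyes gave the same direction, which 29.3% (higher) and 31.9% (lower) of all genes did in T, and 37.5% and 36.4% in IP. Such a count has no threshold on size. In T, 23 of the 36 genes were higher in sponge cells and 5 lower, and in IP 31 were higher and 2 lower (NARS1 and MTHFD2). The median log2 change of the 36 was 0.12 in T and 0.20 in IP, beside −0.010 and 0.0030 for all genes.

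Most ATF4 response genes were higher in sponge cells, by small amounts. In T 13 of 15 and in IP 14 of 15 were higher in both dyes, with median log2 changes of 0.20 (0.25 with Cy3, 0.18 with Cy5) and 0.31 (0.29 and 0.30). With normexp, loess and Aquantile normalisation the medians were 0.15 and 0.17 and the counts 10 and 11, and with all kept probes of a gene averaged the count in T was 11. Few members passed a 1.5-fold change with the same direction in both dyes. In T these were DDIT4 and SLC7A11 (1.09% of all genes). For SLC7A11, not above background in EV T, the bound is at least 1.03-fold, its value with normexp, loess and Aquantile. At the probe used for each gene, DDIT4 alone was thus measured past 1.5-fold. In IP they were DDIT4 and WARS1 (0.625% of all genes), and no member was lower by 1.5-fold in T (0.884% of all genes) or IP (0.384%).

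DDIT4 was far ahead of the others. The normalised log2 signals were 12.80 and 12.95 in EV T, 14.17 and 14.28 in sponge T, 14.03 and 14.17 in EV IP, and 15.89 and 16.10 in sponge IP. The lowest signals were those of EV T, the highest those of sponge IP, and EV and sponge did not overlap in either fraction. DDIT4 was 2.55-fold higher in sponge T (log2 1.35 ± 0.032) and 3.72-fold higher in sponge IP (1.90 ± 0.052). Among 11204 genes these changes ranked 6 and 2 from the highest.

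DDIT3, the transcription factor that ATF4 induces under prolonged stress, read 12.41 and 12.57 in EV T and 12.79 and 12.80 in sponge T. In IP it read 11.71 and 11.90 in EV and 12.32 and 12.45 in sponge cells, so the populations did not overlap in either fraction. The log2 change was 0.31 ± 0.10 in T and 0.58 ± 0.045 in IP, the latter just outside 1.5-fold, at rank 72. TRIB3 rested on 15.64 and 15.49 in EV T against 15.92 and 15.92 in sponge T, a change of 0.35 ± 0.11, and on 0.30 ± 0.016 in IP. Its second probe had −0.020 ± 0.034 in T and 0.48 ± 0.10 in IP, so that the change in T was not shared by both probes.

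CHAC1 was higher by 0.35 ± 0.096 in T and 0.31 ± 0.030 in IP, which left its IP/T nearly the same. SESN2 (0.26 ± 0.15 and 0.31 ± 0.21), PPP1R15A (0.19 ± 0.00016 and 0.34 ± 0.068) and ATF4 itself (0.13 ± 0.10 and 0.12 ± 0.011) were likewise higher in T and in IP. With normexp, loess and Aquantile the IP changes of SESN2 and PPP1R15A were 0.081 and 0.17, and those in T 0.15 and 0.091. The second probe of ATF4 was lower in T (−0.15 ± 0.032) and higher in IP (0.33 ± 0.061). CEBPG had 0.11 ± 0.21 in T, with the dyes in disagreement, and 0.18 ± 0.16 in IP.

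Genes of amino acid supply shifted by similar amounts. ASNS read 15.13 and 15.17 in EV T, 15.36 and 15.34 in sponge T, 14.61 and 14.63 in EV IP, and 15.05 and 14.99 in sponge IP, without overlap of the populations in either fraction. Its log2 changes were 0.20 ± 0.040 and 0.40 ± 0.060. In T and IP, PSAT1 had 0.19 ± 0.085 and 0.35 ± 0.12, SLC3A2 0.21 ± 0.040 and 0.31 ± 0.0079, and SHMT2 0.19 ± 0.20 and 0.28 ± 0.14. The second SLC3A2 probe was lower in T (−0.11 ± 0.11) and had 0.34 ± 0.025 in IP, so the change in T was not shared by both probes. The second SHMT2 probe had 0.057 ± 0.15 in T, with the dyes in disagreement, and 0.46 ± 0.013 in IP. SLC7A5 had 0.082 ± 0.057 and 0.028 ± 0.0056 at its brighter probe, but its dimmer probe, above background in all 8 channels, had 0.89 ± 0.20 and 0.40 ± 0.099. The 2 SLC7A5 probes thus differed more in T than the kept probes of any other member, and the size of the SLC7A5 change is uncertain.

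SLC7A11 and MTHFD2 were the uncertain cases of the list. SLC7A11 signals were near background, with 5.46 and 5.53 in EV T, 6.33 and 5.84 in sponge T, 6.68 and 6.38 in EV IP, and 6.78 and 6.68 in sponge IP. Its change in T was 0.59 ± 0.40, but EV T was above background in neither dye and sponge T in Cy3 only. With normexp, loess and Aquantile the change was 0.040, which is also its bound in log2 units. MTHFD2 was the exception to the direction of the list, with −0.21 ± 0.00097 in IP, while in T Cy3 gave a higher and Cy5 a lower value (−0.10 ± 0.29).

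**Figure D2:**
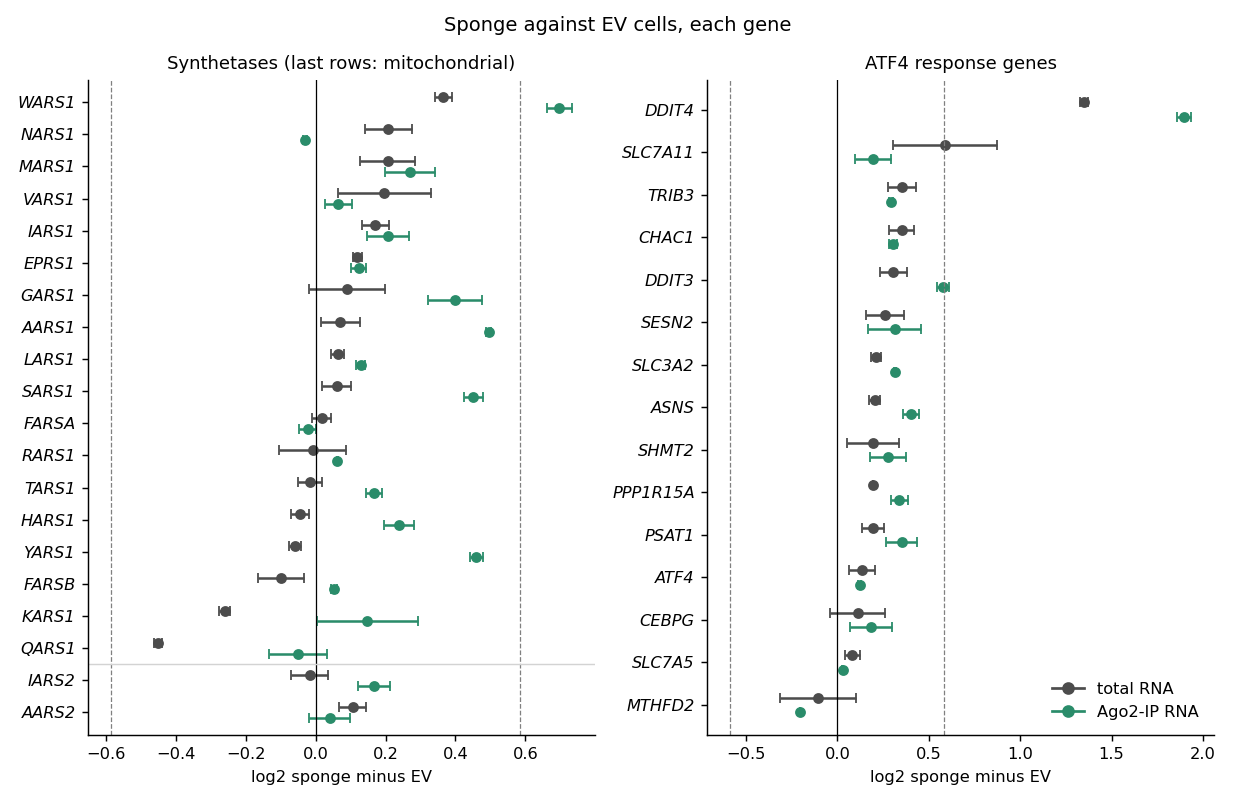
Log2 change between sponge and EV cells in total RNA and in Ago2-IP RNA for 18 cytosolic and 2 mitochondrial synthetases (left, IARS2 and AARS2 below the grey line) and 15 ATF4 response genes (right). Points are means of the dyes, ticks and bars the separate dyes, and dashed lines a 1.5-fold change; DDIT4 stands alone at 1.35 and 1.90, and most synthetases have a larger change in IP than in T.

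The cytosolic synthetases differed between the fractions. In T, 9 of 19 were higher in sponge cells in both dyes and 5 lower (FARSB, HARS1, KARS1, QARS1 and YARS1), with a median log2 change of 0.060. In IP, 16 of 19 were higher and 1 lower, with a median of 0.15 (0.14 with either dye alone), and all but WARS1 stayed under 1.5-fold.

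WARS1, which interferon also induces, had the largest change of the synthetases in IP. It read 13.74 and 13.86 in EV T, 14.14 and 14.20 in sponge T, 13.36 and 13.59 in EV IP, and 14.09 and 14.25 in sponge IP. EV IP was the lowest sample, and the 2 sponge samples were at one level and above both EV samples. The change was 0.37 ± 0.036 in T (1.29-fold) and 0.70 ± 0.051 in IP (1.62-fold, rank 38 of 11204).

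AARS1, YARS1 and SARS1 had their larger change in the IP fraction. AARS1 read 11.57 and 11.47 in EV T and 11.70 and 11.48 in sponge T, which overlap, but 11.12 and 11.01 in EV IP and 11.61 and 11.51 in sponge IP, which do not. The log2 change was 0.070 ± 0.080 in T and 0.49 ± 0.0093 in IP. YARS1 read 11.51 and 11.36 in EV T and 11.43 and 11.32 in sponge T, against 9.96 and 9.94 in EV IP and 10.40 and 10.42 in sponge IP, with changes of −0.059 ± 0.024 and 0.46 ± 0.026. SARS1 had 0.060 ± 0.058 in T and 0.45 ± 0.039 in IP, and GARS1 0.090 ± 0.15 and 0.40 ± 0.11. With normexp, loess and Aquantile the IP changes were smaller, at 0.35 for AARS1, 0.24 for YARS1, 0.29 for SARS1 and 0.25 for GARS1, whose T value was then −0.12.

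A second group had small values in both fractions. IARS1 had 0.17 ± 0.054 in T and 0.21 ± 0.085 in IP, EPRS1 0.12 ± 0.018 and 0.12 ± 0.031, and LARS1 0.064 ± 0.026 and 0.13 ± 0.018. MARS1 had 0.21 ± 0.11 in T and 0.27 ± 0.10 in IP, while its second probe was lower in T (−0.15 ± 0.042) and had 0.39 ± 0.17 in IP. VARS1 was higher by 0.20 ± 0.19 and 0.065 ± 0.054. The changes of RARS1 and FARSA lay between −0.023 and 0.062 in both fractions. TARS1 (0.17 ± 0.032) and HARS1 (0.24 ± 0.060) were higher in IP, with T at −0.016 ± 0.050 and −0.046 ± 0.036.

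NARS1 and QARS1 had their larger change in T. NARS1 read 12.72 and 12.58 in EV T, 12.99 and 12.72 in sponge T, 14.28 and 14.21 in EV IP, and 14.26 and 14.17 in sponge IP, so it was higher in T by 0.21 ± 0.095 while in IP the populations overlapped (−0.030 ± 0.0083). KARS1 was lower in T (−0.26 ± 0.023) and had 0.15 ± 0.20 in IP, but with normexp, loess and Aquantile these were −0.040 and 0.11. QARS1 had the lowest change of all members in T, −0.45 ± 0.017 (rank 10962 of 11204), with 11.87 and 11.80 in EV and 11.41 and 11.36 in sponge cells. In IP its dyes disagreed (−0.051 ± 0.12). With normexp, loess and Aquantile the QARS1 change in T was smaller, at −0.28, a shift well beyond the SD over labellings. Of the mitochondrial enzymes, AARS2 had 0.11 ± 0.053 in T and 0.040 ± 0.084 in IP, and IARS2 −0.018 ± 0.073 and 0.17 ± 0.066.

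**Figure D3:**
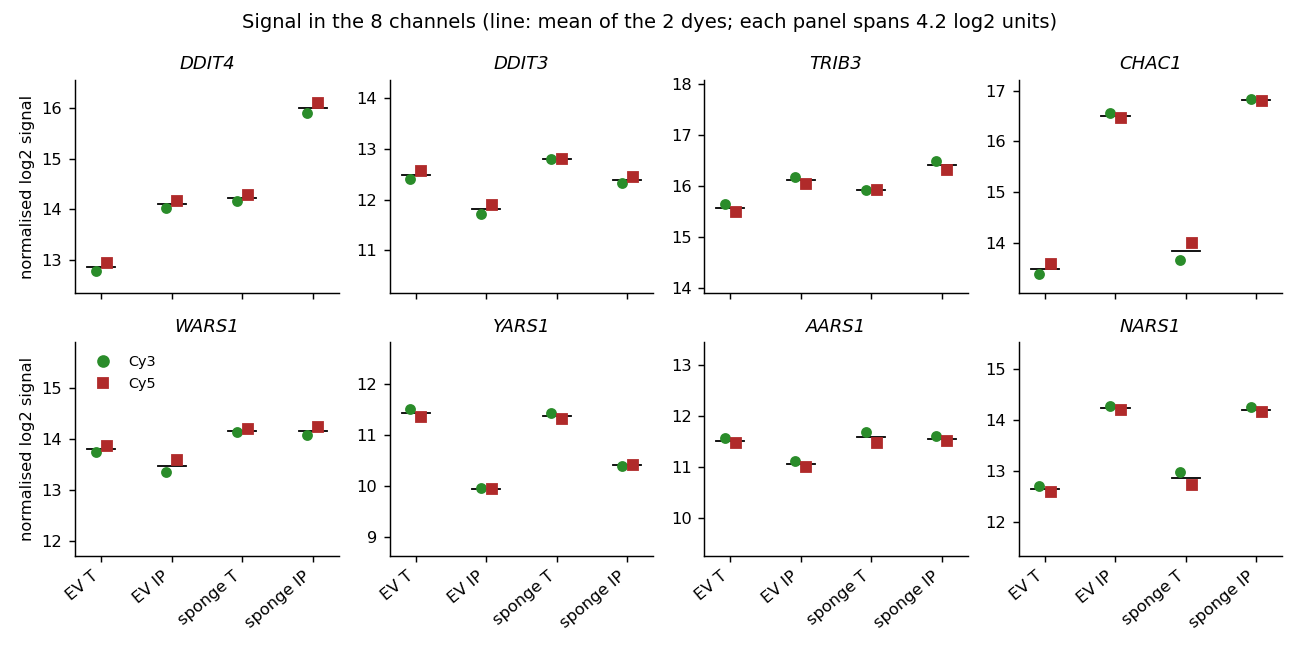
Normalised log2 signal of 8 genes in EV T, EV IP, sponge T and sponge IP, with Cy3 as circles, Cy5 as squares and a line at their mean; every panel covers the same span. DDIT4 is higher in sponge cells in both fractions, WARS1 is at one level in both sponge samples, YARS1 and AARS1 differ between the populations in IP and overlap in T, and NARS1 is far higher in IP than in T.

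Whether genes with the core motif change more than others was not tested. The 7 measured genes whose promoters carry it in full are listed beside median log2 changes in IP of 0.20 (36 genes) and 0.0030 (all genes). In IP their log2 changes were 0.49 (AARS1), 0.31 (CHAC1), 0.27 (MARS1), 0.21 (IARS1), 0.18 (CEBPG), 0.17 (TARS1) and −0.030 (NARS1). DDIT4, WARS1 and DDIT3, with the largest changes in IP, had no match in their windows, which says only that these letters are not there.

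Further lists, written in the same way, put the 36 genes in context. Of 17 measured genes named elsewhere as ATF4 targets or for amino acid supply, 11 were higher and 1 lower in T, and 14 higher and 2 lower in IP. Their median log2 change was 0.19 in T and in IP, next to the values of the ATF4 response genes above. JDP2, a repressor of the AP-1 family (0.66 ± 0.10), and VEGFA, the angiogenic growth factor (0.60 ± 0.11), were higher by over 1.5-fold in T. In log2 IP/T of EV cells this list ran from −1.15 ± 0.088 (PYCR1, of proline synthesis) to 2.66 ± 0.069 (CEBPB, a C/EBP factor), and it held the core motif in 4 of 13 promoters (30.8%).

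Lists of the branches next to ATF4 were described in the same way. Of 10 genes of the unfolded protein response outside ATF4, 5 were higher and 1 lower in T, and 3 were higher and 3 lower in IP, with medians of 0.048 and −0.0050. This list held the most Ago2-enriched gene of all lists, DNAJB9, a chaperone partner of the endoplasmic reticulum (log2 IP/T 4.48 ± 0.0085 in EV cells), and its lowest was HYOU1 (−0.92 ± 0.35). Of 12 genes for eIF2, its kinases, its exchange factor eIF2B and a phosphatase subunit, 9 were lower and 1 higher in T (median −0.15), while in IP 6 were higher and 5 lower. There PPP1R15B had the highest log2 IP/T in EV cells (1.35 ± 0.19) and EIF2B2 the lowest (−1.58 ± 0.026).

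The 3 scaffold proteins of the multi-synthetase complex, EEF1E1 (log2 IP/T 0.66 ± 0.019 in EV cells), AIMP2 and AIMP1 (−0.71 ± 0.084), were all lower in sponge T, with a median of −0.15. In EV cells the median of the 13 other mitochondrial synthetases was −0.82 in log2 IP/T, below the cytosolic enzymes, with RARS2 highest (1.86 ± 0.056) and VARS2 lowest (−1.64 ± 0.22). In T 6 of them were higher and 3 lower, and in IP 7 were higher and 2 lower, with medians of 0.051 and 0.11. RARS1 and RARS2, the cytosolic and the mitochondrial arginine enzymes, were thus both the most Ago2-enriched of their lists.

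**Figure D4:**
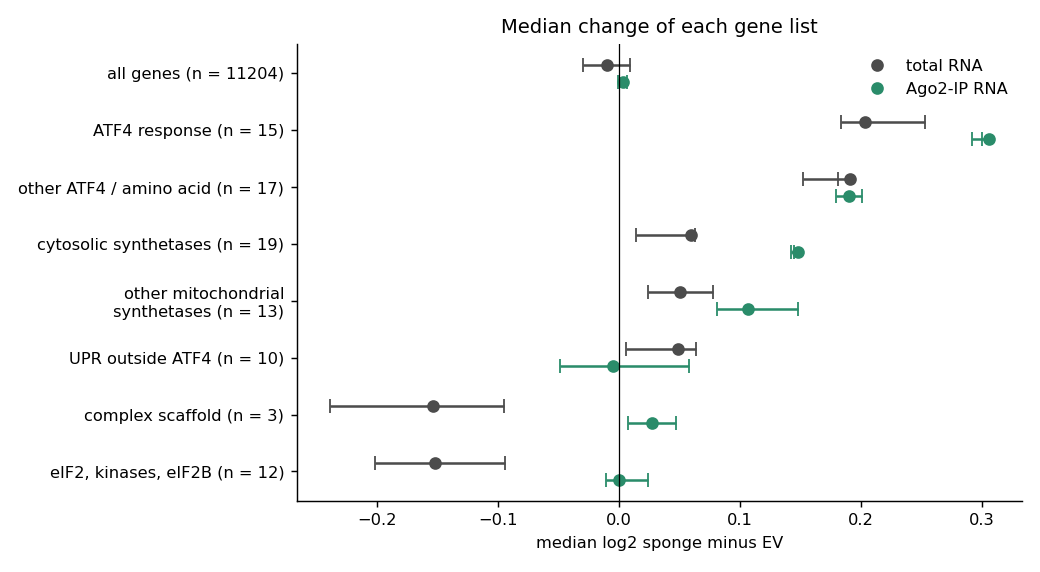
Median log2 change between sponge and EV cells in total RNA and in Ago2-IP RNA for all genes and for each list, with the number of measured genes. Points are medians of the means over both dyes and ticks the medians with 1 dye alone; the ATF4 response genes (0.20 in T, 0.31 in IP) and the other ATF4 and amino acid genes (0.19 in both) lie highest, and all genes lie near 0.

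The 36 genes are brighter than most. Among the 1862 genes at or above their median signal the median log2 change was −0.0093 in T and 0.025 in IP, and 55.0% of these genes were above 0 in IP, against 50.6% of all genes and 32 of the 36 members. The part of signal strength in the result was not tested.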

How the data were processed

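Total RNA and Ago2-IP RNA of EV and sponge cells were measured in both dyes on 4 distinct arrays. Per the file headers, the authors extracted spot intensity values with Agilent Feature Extraction 10.7.3.1 (10.5.1.1 in the submitters' processing notes), which subtracts background and corrects for the dye. The deposited series table holds the authors' quantile normalised log2 values and was used as an alternative. All 4 arrays lay on 1 slide.

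Here control spots and outlier spots were left out, spots of a probe were averaged, and log2 processed signals were quantile normalised over the 8 channels. Of 41000 probes, 60 lacked a value in a channel. A probe was kept if well above background in at least 4 of 8 channels (25830 probes) and if its dyes differed by at most 2-fold in each RNA sample (22472 probes). Symbols came from the RefSeq table of GRCh38.p14 for 15628 kept probes (69.5%). The build of that table differs from the array's, so it was used for names only. The kept probe with the highest mean signal stood for a gene, and probes that differed by over 1 in log2 IP/T were to be named. IP/T was called at 2-fold, and a change at 1.5-fold with the same direction in both dyes. A probe above background in neither dye of a group has a bound only, from normexp (offset 50), loess and Aquantile in limma 3.58.1 (R 4.3.3). With 1 RNA sample per group no test was made. No spot was saturated. Precision is limited by having 4 arrays.

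The members and all lists were chosen with earlier results of these data known. Members are named, except 1 that is counted but not reported here. Of each further list, the highest and the lowest log2 IP/T in EV cells are named, as are genes past 2-fold between sponge and EV cells (0 genes) and genes past 1.5-fold. Promoters and miRNA sequences came from RefSeq. Quantile normalisation and the sponge minus EV contrasts were checked on simulated data with known changes in sponge T only. Filters, probe choice, calls and bounds were not checked in this way. Alternatives were other normalisations, filters, probe choices and single labellings. Sites for miR-155 in transcripts were not analysed here.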

Additional observations from a re-analysis of the deposited data

Results flagged for a closer look

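For 5 synthetases the change between EV and sponge cells had opposite signs in T and in IP, in both dyes, and the difference was not tested. The share of all genes that meet this rule was not computed, and the rule has no threshold on size. The count is therefore a description only. In T and IP the log2 changes were −0.10 and 0.053 for FARSB (a difference of 0.15), −0.046 and 0.24 for HARS1 (0.28), −0.26 and 0.15 for KARS1 (0.41), and −0.059 and 0.46 for YARS1 (0.52). NARS1 went the other way, with 0.21 in T and −0.030 in IP (−0.24). With normexp, loess and Aquantile the NARS1 change in IP was 0.021, on the same side as in T. For KARS1 in IP, Cy3 alone gave 0.0040. The second FARSB probe had −0.39 ± 0.11 in T and 0.0097 ± 0.052 in IP, where its dyes disagreed. The log2 IP/T of QARS1 was −0.25 in EV and 0.15 in sponge cells in the mean and on the same sides in each dye orientation, a difference of 0.40 that was likewise not tested.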

How the results depend on the processing

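No value changed direction among those past a threshold. Single labellings differ from their mean by less than the SD by construction and were left out of the next count. Of 1436 member values under the other alternatives, 1292 moved by less than the SD over labellings and 144 by more. Many of the 1292 could not move. Other filters leave a value as it is while the same probe stands for the gene. Other probe choices matter only for the 9 genes with over 1 kept probe. The count of 1292 is therefore no measure of stability. Averaging all kept probes gave median log2 IP/T of the ATF4 response genes of 0.075 in EV and 0.30 in sponge cells, with IP changes of 0.16 (synthetases) and 0.33 (ATF4 response genes). Detection in all 8 channels or in at least 1 gave 0.22 and 0.20 for the same IP/T medians, and detection in all 8 left 1 gene higher by 1.5-fold in T. With normexp, loess and Aquantile, median log2 IP/T was −0.23 (synthetases) and 0.19 (ATF4 response) in EV cells, and 0.059 and 0.13 in sponge cells, so the synthetase median in sponge cells, −0.031 in the main setting, changed sign. The changes were 0.15 for ATF4 response genes in T, and 0.13 (synthetases) and 0.17 (ATF4 response) in IP. Members with T/IP of at least 2 numbered 2 in EV and 2 in sponge cells, and 1 was higher by 1.5-fold in T. Normexp with quantile normalisation gave −0.36 and 0.15 in EV cells, 0.13 for ATF4 response genes in sponge cells, changes of 0.14 (ATF4 response, T), 0.14 (synthetases, IP) and 0.25 (ATF4 response, IP), and counts of 3, 2 and 1. Scaling to the 75th percentile gave IP changes of 0.17 and 0.31, and the authors' normalised values gave 0.15 for synthetases. With 1 labelling alone, synthetase medians ranged from −0.35 to −0.32 (EV IP/T), from −0.19 to −0.11 (sponge IP/T), from 0.014 to 0.063 (T) and from 0.14 to 0.14 (IP), and ATF4 response medians from 0.18 to 0.25 (T) and from 0.29 to 0.30 (IP). With Cy5 alone 1 gene was higher by 1.5-fold in T. For each such value the cause was not tested. SLC7A11, near background in EV T, has only a bound there. No paired analysis was possible because the labels give no replicate numbers and each group is 1 RNA sample.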
